A study of Mus musculus with 9 samples.

Results

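Transcripts of 36 cell cycle genes were followed in 9 spinal cord samples of C57BL/6 mice, and the genes were picked by name and then required to have 10 or more counts in 3 or more libraries. All 36 of the 36 named genes met that count, out of 27179 genes in the table. They were divided into 8 S phase members, which supply nucleotides or copy DNA, and 28 mitotic members, which build the spindle, separate chromosomes or divide the cell. Each sample gave 1 library of polyadenylated RNA, with 30448507 to 32661741 counts. There were 3 groups of 3 samples. Control mice carried the label Control and no further description. EAE mice had experimental autoimmune encephalomyelitis, an immune attack on the myelin of the central nervous system that is used as a model of multiple sclerosis. EAE+EHP-101 mice, called treated here, had the same disease and received 20 mg/kg of EHP-101 by mouth. EHP-101 is a code-named compound described elsewhere as acting on the nuclear receptor PPAR gamma and the cannabinoid receptor CB2. No source used here gives their sex, age, inducing antigen, day of sampling, length of dosing or vehicle. Genes that mark cord neurons were present in every library, with Snap25 at 3153 to 3891 CPM, the read count scaled to library depth.

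A cell that divides first copies its DNA in S phase and then parts the copies in mitosis. Genes for S phase are switched on at the end of G1 by E2F transcription factors. Genes for mitosis are held silent in resting cells by the DREAM complex and are activated later by MuvB with B-MYB and FOXM1, largely through promoter elements named CHR (cell cycle genes homology region) and the CCAAT box. The adult cord holds few dividing cells, mainly oligodendrocyte progenitors, and in EAE both microglia and invading lymphocytes can divide. In bulk tissue, fewer cells of a type and less RNA per cell cannot be told apart.

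CHR and E2F letters differed in frequency between the classes and CCAAT letters hardly did, as counted below. The bases just upstream of 4 members are shown. Each is the 150 bases before the transcription start in RefSeq on build GRCm38.p6, written 5′ to 3′ on the strand of the gene. Capitals mark TTTGAA (the CHR letters), CCAAT and the E2F letters TTTCCCGC, TTTCGCGC, TTTGCCGC or TTTGGCGC, each on either strand. Top2a and Cdk1 stand for mitotic genes that rose in EAE, Mcm6 for S phase genes that rose, and Ect2 for mitotic genes with the same elements that did not pass the test.
Top2a (chr11:99024190-99024339, minus strand): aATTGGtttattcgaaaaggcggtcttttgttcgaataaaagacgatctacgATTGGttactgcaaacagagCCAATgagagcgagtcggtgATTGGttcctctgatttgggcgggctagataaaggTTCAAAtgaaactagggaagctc
Cdk1 (chr10:69352913-69353062, minus strand): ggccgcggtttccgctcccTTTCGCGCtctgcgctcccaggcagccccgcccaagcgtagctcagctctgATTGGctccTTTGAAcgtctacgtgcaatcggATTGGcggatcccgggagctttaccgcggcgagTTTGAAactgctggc
Mcm6 (chr1:128359706-128359855, minus strand): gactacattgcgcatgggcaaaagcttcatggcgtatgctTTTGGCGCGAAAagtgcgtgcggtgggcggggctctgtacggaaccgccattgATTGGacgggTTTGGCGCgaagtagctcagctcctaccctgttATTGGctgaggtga
Ect2 (chr3:27153879-27154028, minus strand): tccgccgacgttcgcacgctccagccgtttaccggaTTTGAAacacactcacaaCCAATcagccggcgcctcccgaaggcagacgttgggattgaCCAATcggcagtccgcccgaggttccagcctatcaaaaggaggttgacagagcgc
Top2a had CCAAT letters at 4 places and CHR letters once in this stretch. The Cdk1 stretch had both elements and 1 E2F match. The Mcm6 stretch had 3 E2F matches, of which 2 overlap each other, and no CHR letters. RefSeq starts Mcm6 49 bases before the deposited gene model, and the starts of the other 3 coincide.

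Over the whole 300 bases of each RefSeq promoter, 250 before the start and 50 after it, 32 members had a sequence, and Ccna2, Aurkb, Kif20a and Tpx2 had none. CHR letters lay in 18 of 24 mitotic promoters (75.0%), in 1 of 8 S phase promoters (12.5%, that of Mcm2) and in 16.1% of 18457 promoters of all genes. CCAAT letters lay in 19 of 24 mitotic and 6 of 8 S phase promoters, against 39.0% of all. E2F letters lay in 3 of 8 S phase promoters, those of Mcm3, Mcm5 and Mcm6, in 1 of 24 mitotic promoters, that of Cdk1, and in 2.88% of all. Searches covered both strands, and a match is a run of letters, not a measured binding site. CHR letters were present in 9 of 15 promoters of members that rose in EAE and in 10 of 17 of the other members. E2F letters were present in 4 of 15 and 0 of 17, and CCAAT letters in 14 of 15 and 11 of 17, in the same order. These are counts with no test.

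EAE was compared with Control to ask which of these genes change with the disease. Top2a, which untangles DNA, rose 4.73-fold, Ube2c rose 4.59-fold, the cyclin gene Ccnb1 3.33-fold, the proliferation marker Mki67 3.28-fold and the mitotic kinase Cdk1 2.93-fold. Among S phase members the helicase subunit Mcm3 rose most, 2.26-fold. In all 18 members rose and 1 fell at an adjusted p under 0.05. Of all 16749 genes tested 37% were called, 20.2% higher and 16.7% lower. At an unadjusted p under 0.05, 22 members were higher (background 24.9%) and 1 lower (background 21.8%). The 18 were 4 of 8 S phase and 14 of 28 mitotic members. Libraries of the groups did not overlap, with EAE above, for 24 members (background 25.6%) and, with EAE below, for 0 (background 21.1%). The median member was at log2 0.53 and the median of all genes tested at log2 0.01. The submitters call the 3 samples of a group biological replicates, without saying whether each is 1 animal, so each p-value reflects only how much such samples vary.

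Ccnb1, Aurkb and Ube2c had no Control library with 10 counts. They entered the list only through libraries of the other groups, where they are higher. Bub1 and Ndc80 had 1 and 2 such Control libraries, so they too needed libraries of the other groups. The rises of all these genes are no independent part of these counts.

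**Figure D1:**
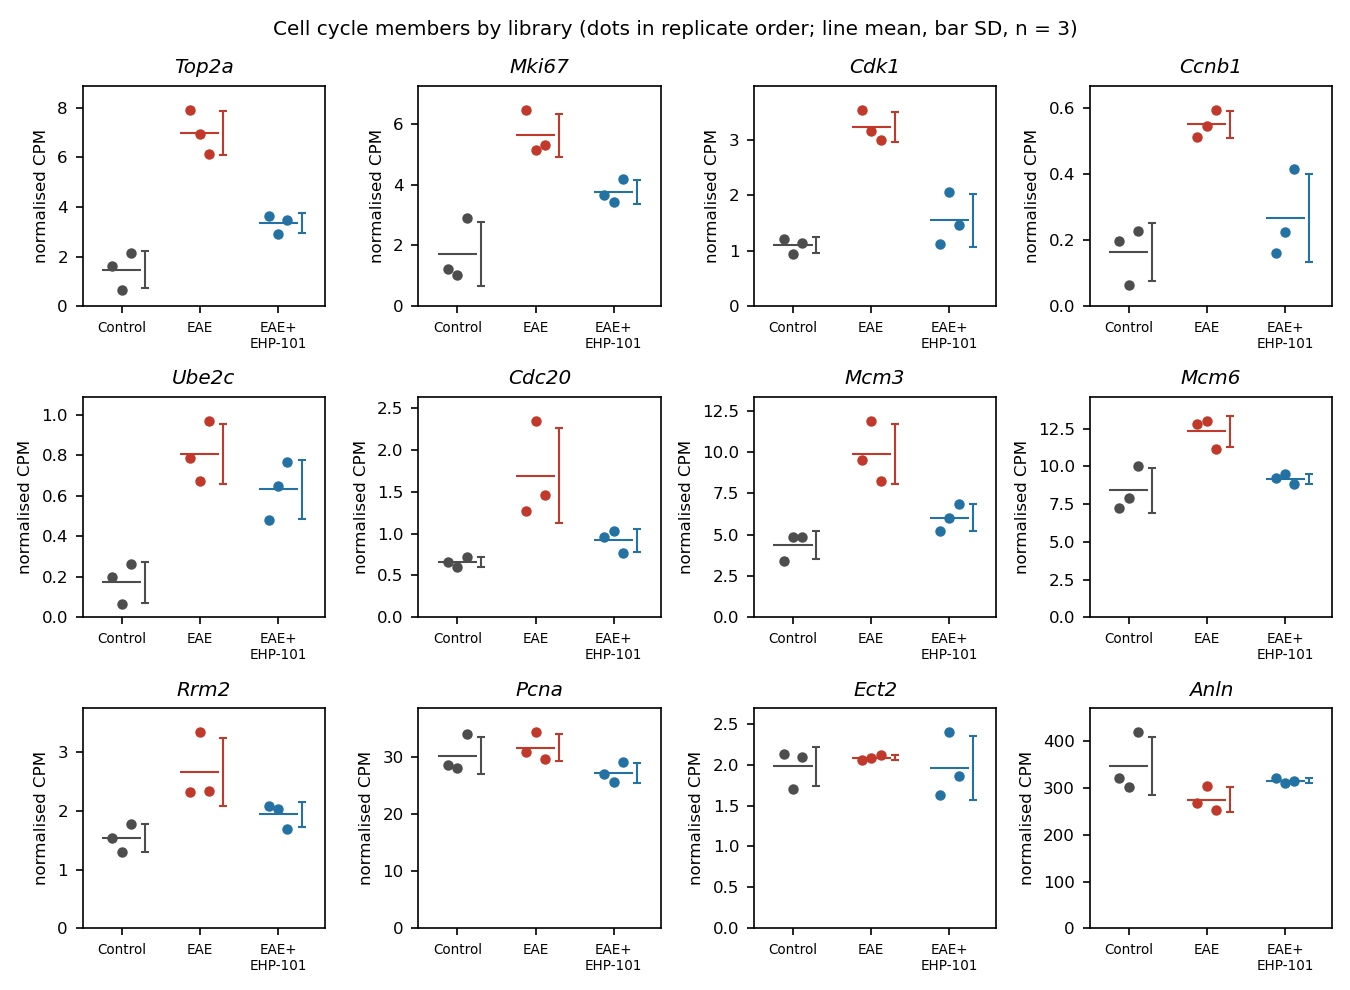
Normalised CPM of 12 members, 1 dot per library, with the mean as a line and the SD as a bar (n = 3 per group). All 3 EAE libraries lie above all 3 Control libraries for the first 9 genes from Top2a to Rrm2, and the same 2 groups overlap for Pcna, Ect2 and Anln.

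Chromosome structure genes had the widest gaps. Top2a (gene 21973, chr11:98992947-99024189, build mm10) stood at 1.64, 0.664 and 2.13 CPM in Control, at 7.88, 6.95 and 6.11 CPM in EAE and at 3.65, 2.91 and 3.49 CPM in treated mice. The 3 groups did not overlap, with treated libraries in the middle. EAE exceeded Control by log2 2.24 (SE 0.29, adjusted p = 0.00021). Mki67 (gene 17345, chr7:135689788-135716379), whose protein coats mitotic chromosomes, had 1.22, 1.01 and 2.92 CPM in Control, 6.43, 5.13 and 5.30 CPM in EAE and 3.65, 3.43 and 4.19 CPM in treated mice. Its groups also kept apart, and Control replicate 3 was well above its 2 companions. The difference between EAE and Control was log2 1.71 (SE 0.30, adjusted p = 0.00134).

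All 4 genes for Cdk1 and its cyclin partners rose. Cdk1 (gene 12534, chr10:69336635-69352912), the kinase that starts mitosis, had 1.22, 0.949 and 1.15 CPM in Control, 3.53, 3.17 and 2.99 CPM in EAE and 1.12, 2.07 and 1.47 CPM in treated mice. Treated replicate 1 lay within the Control range (EAE against Control log2 1.55, SE 0.22, adjusted p = 0.000428). Ccnb1 (gene 268697, chr13:100778739-100786486), the main mitotic cyclin, rested on 6, 2 and 7 counts in Control, 17, 17 and 19 in EAE and 5, 7 and 13 in treated mice. Its EAE counts were all above the others, and with so few reads the SE was wide (log2 1.74, SE 0.44, adjusted p = 0.0097). Ccnb2 (gene 12442, chr9:70407689-70421554), a second B-type cyclin, had 0.624, 0.443 and 0.590 CPM in Control, 1.27, 1.06 and 1.53 CPM in EAE and 0.608, 0.744 and 0.897 CPM in treated mice (EAE against Control log2 1.21, SE 0.25, adjusted p = 0.00343). Ccna2 (gene 12428, chr3:36564865-36571996) encodes cyclin A2, which acts from S phase until early mitosis. It had 2.0, 1.74 and 2.10 CPM in Control, 3.77, 3.56 and 2.74 CPM in EAE and 2.75, 3.33 and 2.88 CPM in treated mice. Treated and EAE libraries overlapped, and both lay above Control (EAE against Control log2 0.79, SE 0.17, adjusted p = 0.00414).

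Both members that act with the anaphase promoting complex, the ubiquitin ligase that ends mitosis, rose as well. Ube2c (gene 68612, chr2:164769929-164772902), its ubiquitin-conjugating enzyme, rested on 6, 2 and 8 counts in Control, 26, 21 and 31 in EAE and 15, 20 and 24 in treated mice. Control libraries were far below the others (EAE against Control log2 2.20, SE 0.40, adjusted p = 0.00151). Cdc20 (gene 107995, chr4:118432901-118437343), its activator, had 0.657, 0.601 and 0.721 CPM in Control, 1.27, 2.34 and 1.47 CPM in EAE and 0.960, 1.03 and 0.769 CPM in treated mice. EAE replicate 2 was the highest, and the groups did not overlap (EAE against Control log2 1.35, SE 0.27, adjusted p = 0.0027).

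Mitotic kinases and their partners were divided. Aurkb (gene 20877), the kinase of the chromosomal passenger complex, had 2, 8 and 9 counts in Control, 18, 16 and 16 in EAE and 7, 10 and 13 in treated mice. Bub1 (gene 12235), a spindle checkpoint kinase, had 13, 3 and 8 counts in Control, 20, 15 and 24 in EAE and 14, 19 and 12 in treated mice. Both rose in EAE, by log2 1.32 (SE 0.42, adjusted p = 0.028) and log2 1.22 (SE 0.42, adjusted p = 0.0406). Birc5 (gene 11799), which encodes survivin of the same passenger complex, did not pass. It had 2.13, 1.36 and 0.983 CPM in Control, 2.39, 1.89 and 2.06 CPM in EAE and 1.92, 2.36 and 2.31 CPM in treated mice (log2 0.50, SE 0.25, adjusted p = 0.142). Control replicate 1 was the highest Control for Birc5, 1 of 11 members of the 36 where this was so. Without that library the adjusted p was 0.0188 (0.0188 to 0.418 over all alternatives). The same library held 24.0 CPM of skeletal muscle marker genes against 0.897 to 1.60 CPM in the other libraries, and any bearing of this on Birc5 was not tested. Plk1 (gene 18817), a kinase that acts throughout mitosis, had 0.887, 1.08 and 0.819 CPM in Control, 1.60, 1.09 and 1.12 CPM in EAE and 1.02, 1.26 and 1.51 CPM in treated mice (log2 0.45, SE 0.24, adjusted p = 0.162). Aurka, the spindle pole kinase, was at 1.99 ± 0.294 CPM (SD, n = 3) in Control and 2.49 ± 0.351 CPM in EAE. Bub1b, a checkpoint protein, was at 4.74 ± 1.58 and 5.71 ± 0.780 CPM in the same groups, and neither passed (adjusted p = 0.19 and 0.413).

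Spindle genes differed by smaller amounts. Tpx2, an activator of Aurora A, rose from 3.25 ± 0.276 to 4.98 ± 0.473 CPM (log2 0.61, SE 0.14, adjusted p = 0.00652). Prc1, which bundles microtubules of the spindle midzone, rose from 3.78 ± 0.0718 to 4.80 ± 0.462 CPM (log2 0.34, SE 0.12, adjusted p = 0.0425). The other 6 kinesin and spindle genes did not pass. Kif11 (gene 16551), the motor that keeps spindle poles apart, had 2.46, 2.37 and 1.67 CPM in Control, 2.78, 2.72 and 3.49 CPM in EAE and 1.89, 2.04 and 2.50 CPM in treated mice (log2 0.47, SE 0.19, adjusted p = 0.0799). Kif4 (gene 16571), a chromosome-bound kinesin, had 2.04, 2.06 and 2.65 CPM, then 2.81, 3.49 and 2.65 CPM, then 1.95, 2.36 and 2.50 CPM in the same order (log2 0.41, SE 0.18, adjusted p = 0.0955). Nusap1 (gene 108907), a microtubule stabiliser, had 2.79, 3.26 and 3.11 CPM in Control, 3.93, 3.43 and 3.74 CPM in EAE and 3.45, 3.95 and 4.23 CPM in treated mice. Its EAE libraries lay above its Controls without passing (log2 0.28, SE 0.14, adjusted p = 0.138). Hmmr, a spindle assembly factor, was at log2 0.67 (adjusted p = 0.0546), and the midzone kinesins Kif23 and Kif20a were at log2 0.22 and 0.01 (adjusted p = 0.434 and 0.969).

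At the kinetochore, the link between chromosome and spindle, 2 of 4 members rose. Cenpf (gene 108000, chr1:189640606-189688086), a large kinetochore protein, had 1.22, 0.854 and 1.67 CPM in Control, 2.93, 2.63 and 2.37 CPM in EAE and 1.66, 1.65 and 1.44 CPM in treated mice (EAE against Control log2 1.08, SE 0.23, adjusted p = 0.00343). Ndc80, which binds microtubules, rose from 0.313 ± 0.0817 to 0.674 ± 0.0199 CPM (log2 1.10, SE 0.31, adjusted p = 0.0161). Its direct partner in the same complex, Nuf2, was at log2 0.16 (SE 0.19, adjusted p = 0.541) and the kinetochore motor Cenpe at log2 0.47 (SE 0.19, adjusted p = 0.072).

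Neither of the 2 members listed under cytokinesis rose in EAE. Some members of other roles also differed little, such as Kif20a (log2 0.01), Nuf2 (log2 0.16) and Pcna (log2 0.07). Ect2 (gene 13605, chr3:27097222-27153878), which activates RhoA at the cleavage plane, had 2.13, 1.71 and 2.10 CPM in Control, 2.05, 2.08 and 2.12 CPM in EAE and 1.63, 2.39 and 1.86 CPM in treated mice. These ranges overlap, and the difference was log2 0.08 (SE 0.18, adjusted p = 0.774). Anln (gene 68743, chr9:22331214-22389206) encodes anillin, a scaffold of the cleavage furrow that myelinating oligodendrocytes also make outside division. It had 322, 301 and 418 CPM in Control, 267, 304 and 253 CPM in EAE and 321, 309 and 316 CPM in treated mice. Per kilobase of transcript it was the most abundant member in Control, at 64.1 ± 11.5 CPM per kilobase, where Pcna followed at 23.9 ± 2.56 and every other member was at 2.90 or less. Anln was the 1 member that fell in EAE (log2 -0.34, SE 0.11, adjusted p = 0.0332), although Control and EAE libraries overlapped. Oligodendrocyte markers summed to 26871 to 36642 CPM in Control and 27932 to 32177 CPM in EAE, highest in Control replicate 3, as Anln was. Their part in the result was not tested. The call ended with the length trend of each library removed (adjusted p = 0.28) and with the replicate number as a block (0.0612). It also ended without EAE replicate 1 (0.0866) and without EAE replicate 3 (0.0898), in a range of 0.0085 to 0.28 over all alternatives.

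S phase members gave a split picture. Mcm3 (gene 17215, chr1:20803014-20820213), a subunit of the replicative helicase, had 3.38, 4.84 and 4.88 CPM in Control, 9.54, 11.9 and 8.26 CPM in EAE and 5.21, 6.01 and 6.85 CPM in treated mice. Its 3 groups did not overlap (EAE against Control log2 1.18, SE 0.18, adjusted p = 0.000528). Mcm6 (gene 17219, chr1:128331591-128359656) had 7.26, 7.91 and 10.1 CPM in Control, 12.8, 13.0 and 11.1 CPM in EAE and 9.21, 9.51 and 8.84 CPM in treated mice (log2 0.55, SE 0.12, adjusted p = 0.00501). Mcm5 (gene 17218, chr8:75109528-75128439) had 3.19, 4.33 and 4.65 CPM in Control, 7.13, 6.12 and 5.58 CPM in EAE and 5.89, 5.53 and 4.42 CPM in treated mice (log2 0.63, SE 0.17, adjusted p = 0.013). Mcm2 (gene 17216), of the same helicase ring, did not pass. It had 7.06, 7.21 and 7.57 CPM in Control, 8.49, 7.62 and 8.01 CPM in EAE and 8.32, 7.66 and 7.33 CPM in treated mice (log2 0.14, SE 0.10, adjusted p = 0.273). Pcna (gene 18538, chr2:132249286-132253180), the sliding clamp of DNA polymerases, which also serves in DNA repair, had 28.5, 28.1 and 33.9 CPM in Control, 30.9, 34.2 and 29.6 CPM in EAE and 26.9, 25.5 and 29.0 CPM in treated mice (log2 0.07, SE 0.09, adjusted p = 0.594).

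Of the enzymes that supply nucleotides only Rrm2 (gene 20135, chr12:24708254-24714146) rose. This small subunit of ribonucleotide reductase had 1.54, 1.30 and 1.77 CPM in Control, 2.33, 3.33 and 2.34 CPM in EAE and 2.08, 2.04 and 1.70 CPM in treated mice (EAE against Control log2 0.79, SE 0.20, adjusted p = 0.0103). Tyms (gene 22171), thymidylate synthase, had 2.50, 2.97 and 2.36 CPM in Control, 1.87, 2.21 and 2.93 CPM in EAE and 2.69, 2.33 and 2.88 CPM in treated mice (log2 -0.16, SE 0.19, adjusted p = 0.544). Tk1 (gene 21877), thymidine kinase of dividing cells, had 1.51, 0.918 and 0.491 CPM in Control, 1.18, 1.25 and 1.43 CPM in EAE and 0.864, 0.841 and 1.02 CPM in treated mice. Control replicate 1 was again the highest Control, and the test with it gave log2 0.40 (SE 0.32, adjusted p = 0.352), without it an adjusted p of 0.049 (0.049 to 0.881 over all alternatives).

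Calls of 12 of the 19 members held under every alternative run. The 7 others were Anln, Aurkb, Bub1, Mcm5, Ndc80, Prc1 and Rrm2. Aurkb, Bub1, Ndc80 and Prc1 lost theirs in the DESeq2 Wald test (adjusted p = 0.0826, 0.0871, 0.0752 and 0.115). Leaving out any 1 of the EAE libraries, or Control replicate 1 or 2, ended the call of Aurkb (adjusted p = 0.053 to 0.0846). Leaving out any 1 library ended that of Bub1 except for Control replicate 1 and treated replicate 1, and that of Prc1 except for EAE replicate 3. The call of Mcm5 ended without Control replicate 1 (0.0566) or EAE replicate 1 (0.0601), and that of Rrm2 without Control replicate 2 (0.053) or EAE replicate 2 (0.0628). Ndc80 lost its call without Control replicate 1, Control replicate 2 or EAE replicate 2 (0.0656, 0.0509 and 0.0535).

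**Figure D2:**
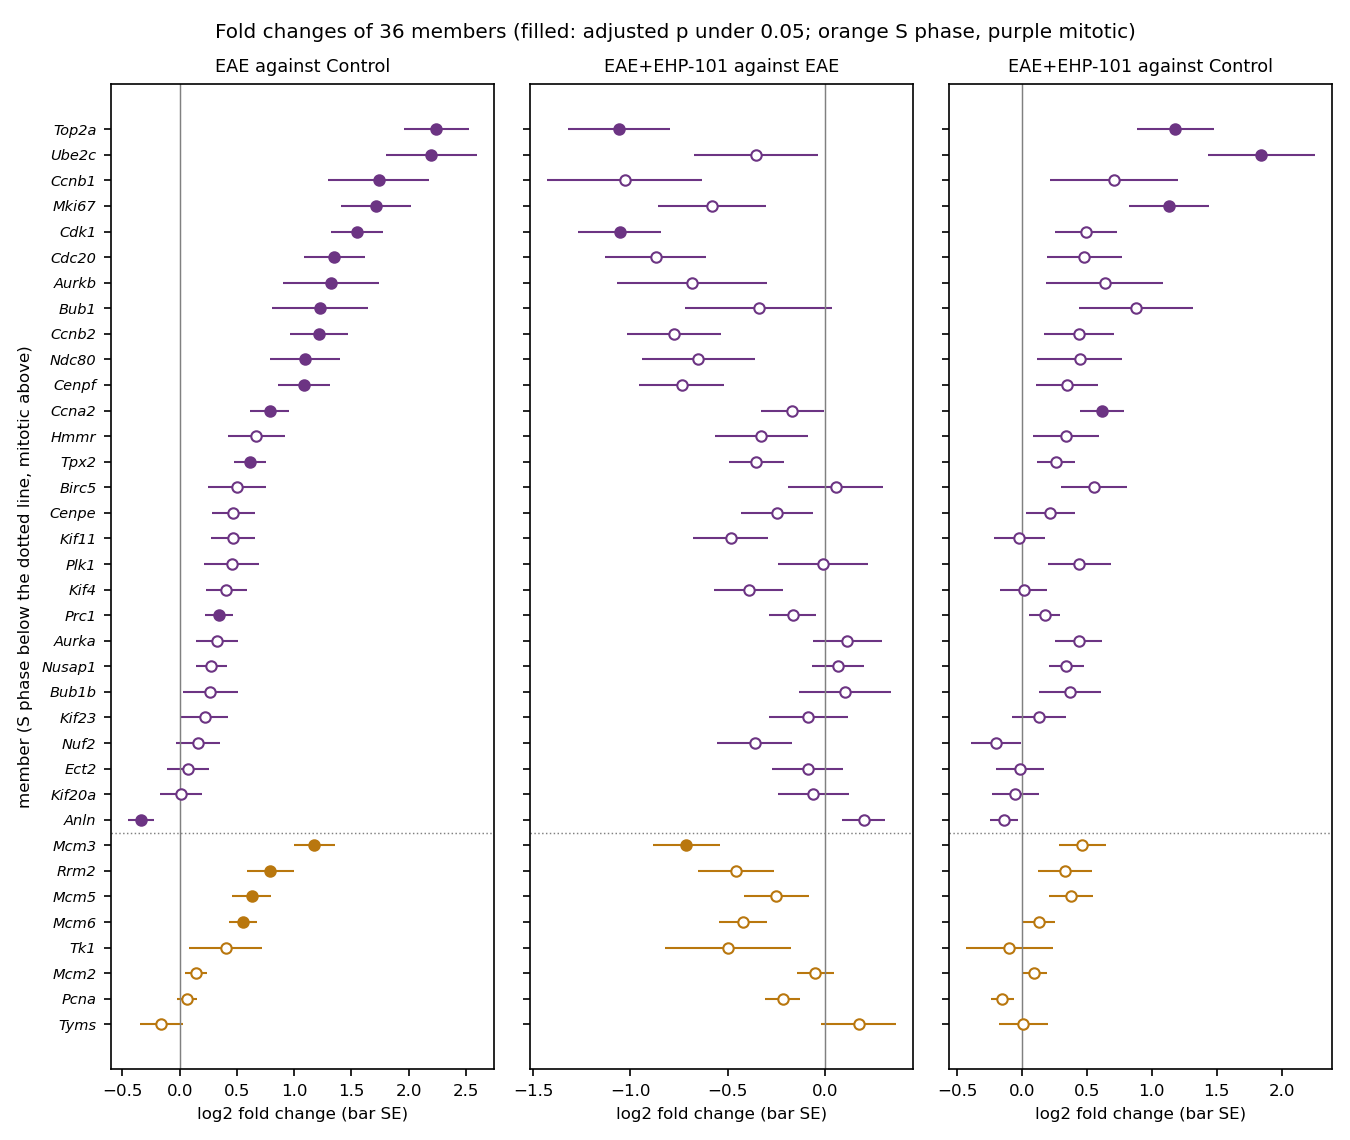
Log2 fold change of each of the 36 members in the 3 comparisons, with bars for the SE and filled points for an adjusted p under 0.05; S phase members are orange and lie below the dotted line, mitotic members purple. In EAE against Control 18 points are filled to the right of 0 and 1 to the left, in EAE+EHP-101 against EAE 3 are filled to the left, and in EAE+EHP-101 against Control 4 are filled to the right.

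S phase and mitotic members were then set side by side. In EAE against Control the median was log2 0.48 for S phase members (range -0.16 to 1.18) and log2 0.56 for mitotic members (range -0.34 to 2.24). The gap of 0.08 between the medians was 0.32 with the length trend of each library removed. Averaged over genes as log2(CPM + 0.1) and set against the Control mean, S phase members stood at 0.41, 0.53 and 0.41 in the 3 EAE libraries, and mitotic members at 0.77, 0.73 and 0.72. By mean the mitotic class was therefore higher in each EAE library, by more than the medians show. The mitotic values include Ccnb1, Aurkb, Ube2c, Bub1 and Ndc80, which needed libraries outside Control to meet the count rule. No S phase member did, so this gap is no independent result about the classes. The 10 members under 1 CPM in Control had a median of log2 1.22, the 26 at 1 CPM or more one of 0.44. Any bearing of level on the gap was not tested. Within the mitotic class the roles ranged from a median of log2 1.98 for the 2 chromosome structure genes and 1.77 for the 2 genes of anaphase promotion, through 1.38 for Cdk1 and its cyclins and 0.78 for the kinetochore, to 0.48 for kinases, 0.38 for spindle genes and -0.13 for cytokinesis. Nucleotide supply had a median of log2 0.40 and the replication fork of 0.55. No p is given for these scores, because the members were chosen with results known. The medians of anaphase promotion, of Cdk1 and its cyclins, of kinases and of the kinetochore include genes that needed libraries outside Control to meet the count rule.

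**Figure D3:**
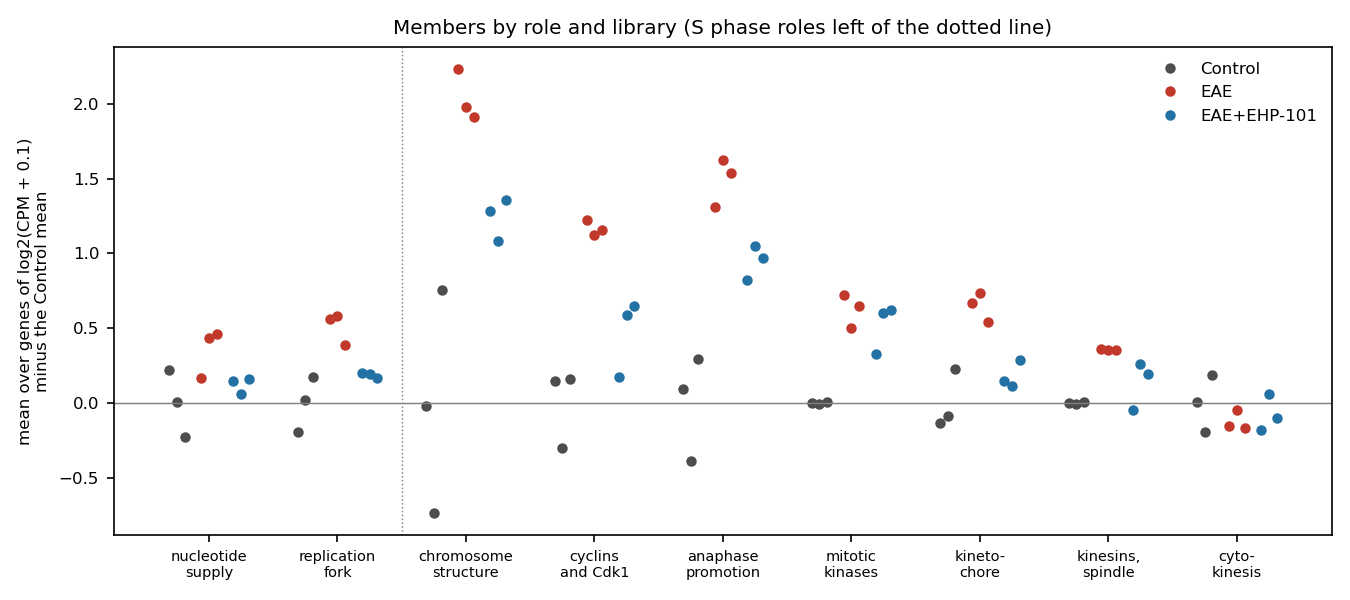
Mean over the genes of each role of log2(CPM + 0.1) minus the Control mean, 1 dot per library, for 3 Control, 3 EAE and 3 EAE+EHP-101 libraries. Chromosome structure genes lie at 1.92 to 2.23 in EAE and at 1.09 to 1.35 in treated mice, and cytokinesis genes lie between -0.19 and 0.18 in all 9 libraries.

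Treated mice were compared with EAE mice to ask what differs when the compound is given. Cdk1, Top2a and Mcm3 fell. Cdk1 was lower 2.08-fold (log2 -1.06, SE 0.21, adjusted p = 0.015), Top2a 2.08-fold (log2 -1.06, SE 0.26, adjusted p = 0.0382) and Mcm3 1.64-fold (log2 -0.71, SE 0.17, adjusted p = 0.0351). These were 3 of 36 members, 2 mitotic and 1 S phase, with a background of 5.24% of genes called, 4.81% lower and 0.43% higher, and 0 of 36 were called higher. At an unadjusted p under 0.05, 14 members were lower and 0 higher in edgeR, with backgrounds of 11.7% and 4.42%. Libraries did not overlap, with treated below EAE, for 18 members (background 16.9%) and, with treated above, for Anln alone (background 10.7%). Both the 14 and the 18 include Ccnb1, and the 18 include Aurkb too. Both genes met the count rule only with the help of their EAE libraries, so their falls are no independent part of these counts. The median was log2 -0.34 for S phase and -0.35 for mitotic members, and 0.00 for all genes tested.

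Several members just missed the threshold. Mcm6 was at log2 -0.42 (SE 0.12, adjusted p = 0.0786), Cdc20 at -0.87 (SE 0.26, adjusted p = 0.0867), Cenpf at -0.74 (SE 0.22, adjusted p = 0.0892) and Ccnb2 at -0.78 (SE 0.24, adjusted p = 0.106). Ccnb1 had a difference as large as that of Cdk1 with a wider error (log2 -1.03, SE 0.40, adjusted p = 0.213). It met the count rule only with the help of its EAE libraries, so this fall is no independent result. Mki67 was at log2 -0.58 (SE 0.28, adjusted p = 0.342). A second set of mitotic genes showed next to no difference between treated and EAE mice, though the SE leaves room for one. Plk1 was at log2 -0.01 (SE 0.23), Birc5 at 0.05 (SE 0.24), Nusap1 at 0.07 (SE 0.13), Bub1b at 0.10 (SE 0.24) and Aurka at 0.11 (SE 0.18), each with an adjusted p of 0.805 or more. Ube2c was at log2 -0.35 (SE 0.32, adjusted p = 0.652) and Ccna2 at -0.17 (SE 0.16, adjusted p = 0.678). Mitotic kinase genes as a role had a median of log2 0.02, Cdk1 and its cyclins one of -0.90. The first role includes Aurkb and the other Ccnb1, which both met the count rule only with the help of EAE libraries. Whether the second set of genes responds differently from Cdk1 was not tested.

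This count of 3 moved when single libraries were left out. It was 0 without EAE replicate 1 and 0 without EAE replicate 2, and 1 without treated replicate 1 or treated replicate 2. Genes called lower over the whole table went from 805 to 464, 348, 547 and 501 in these runs, in that order. Without EAE replicate 1 and without EAE replicate 2, Cdk1 was at log2 -0.99 and -1.05, Top2a at -0.96 and -1.05 and Mcm3 at -0.74 and -0.55. Without Control replicate 3 it was 6, with Cenpf, Mcm6 and Mki67 added, and with only the EAE and treated libraries fitted it was 5. Treated replicate 1 held the fewest transcripts of T cells among the treated (2.85 summed CPM over 10 marker genes, against 7.50 and 11.7 in treated replicates 2 and 3). Its sum over the mitotic members other than Anln was also the lowest of the 3 (51.1 CPM against 59.7 and 59.6). With Anln included, treated replicate 2 had the lowest sum.

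Treated mice were last compared with Control, to ask which members differed between these groups. Ube2c rose 3.59-fold (log2 1.84, SE 0.41, adjusted p = 0.0133), Top2a 2.27-fold (log2 1.18, SE 0.30, adjusted p = 0.0202), Mki67 2.19-fold (log2 1.13, SE 0.31, adjusted p = 0.0277) and Ccna2 1.53-fold (log2 0.62, SE 0.17, adjusted p = 0.0293). Ube2c met the count rule only through EAE and treated libraries, so its rise is no independent part of this result either. These 4 of 28 mitotic members stood beside 0 of 8 S phase members, with a background of 19.8% of genes called, 9.96% higher and 9.82% lower. The share of 4 in 36 members is near the background called higher. This count is therefore no result about the members or about a difference between the classes. No member was called lower, and with the length trend of each library removed Pcna was (adjusted p = 0.0409, with 0.0409 to 0.522 over all alternatives). With library totals in place of TMM factors the calls over all genes were 2176 higher and 1319 lower, in place of 1669 and 1645. At an unadjusted p under 0.05, 9 members were higher and 0 lower in edgeR (backgrounds 18.3% and 16.8%). Libraries did not overlap, with treated above Control, for 9 members (background 19%). The S phase median was log2 0.11 and the mitotic median 0.40, a gap of 0.29 that ran from 0.14 to 0.35 with 1 library left out. Mean levels in log2 against Control were 0.18, 0.14 and 0.16 for S phase members in the 3 treated libraries, and 0.24, 0.46 and 0.48 for mitotic members. The mitotic values again include the genes that needed libraries outside Control to meet the count rule. All 4 calls ended without treated replicate 2, and likewise without treated replicate 3. Ccna2 and Mki67 lost their calls without Control replicate 1 (adjusted p = 0.0633 and 0.0837), where Birc5 gained one (0.0301), and without Control replicate 2 (0.102 and 0.0921), which left 2 calls. This comparison shares its libraries with the other comparisons, so the 3 are not independent.

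Genes of the same pathways outside the 36 were described from lists made for this purpose. Of 57 other mitotic genes 54 were tested, and 23 rose and 1 fell in EAE against Control, where 20.2% of all genes tested were called higher and 16.7% lower. Iqgap3, a scaffold protein linked to proliferation, went from 0.789 ± 0.0339 to 3.65 ± 0.450 CPM (log2 2.20, SE 0.20, adjusted p = 3.54e-05). Pbk, a mitotic kinase, was at log2 2.54 (SE 0.37), the spindle pole gene Aspm at 1.14 (SE 0.19) and the kinesin gene Kif18b at 1.60 (SE 0.27), with adjusted p up to 0.00104. Hjurp, a chaperone of centromeric histone, fell from 11.6 ± 0.901 to 8.68 ± 0.878 CPM (adjusted p = 0.0087) and was named after its value was seen. In treated against EAE mice 3 of the 54 fell, a share near the background of 4.81%, so it is no result about this list. These were Iqgap3 (log2 -1.04, SE 0.18, adjusted p = 0.00736), the spindle gene Ckap2 (log2 -0.67, SE 0.17, adjusted p = 0.0389) and the condensin gene Ncapg (log2 -0.92, SE 0.24, adjusted p = 0.0494). In treated against Control mice 4 of the 54 rose, Cenpa, Pbk, Aspm and Iqgap3, a share below the background of 9.96%. The list's median was log2 0.50 for EAE against Control and -0.29 for treated against EAE.

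Of the 39 other replication genes 7 were higher and 0 lower in EAE against Control, at a median of log2 0.14. The share called higher was near the background of 20.2%, so it is no result about this list. Uhrf1, which keeps DNA methylation through replication, rose from 0.756 ± 0.0571 to 2.09 ± 0.131 CPM (log2 1.47, SE 0.18, adjusted p = 0.000196). The licensing gene Cdc6 rose by log2 1.18 (SE 0.29), the licensing inhibitor Gmnn by 0.48 (SE 0.11) and the helicase cofactor Gins2 by 1.01 (SE 0.25). None of the 39 was called in treated against EAE mice (background 5.24%), where 2 were lower at an unadjusted p under 0.05 in edgeR (background 11.7%). In treated against Control mice 4 of 39 rose, near the background of 9.96%, among them Uhrf1 (log2 0.98, SE 0.19, adjusted p = 0.00821) and Pold1, a polymerase subunit. In the same comparison 2 fell, Rrm1 and Orc3 (adjusted p = 0.0355 and 0.0399), with a background of 9.82%.

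Regulators of the G1 phase rose in 9 of 22 cases in EAE against Control (background 20.2%) and fell in 1 (background 16.7%). The rises included the D-type cyclins Ccnd3 (log2 0.47, SE 0.08), Ccnd2 (0.69, SE 0.13) and Ccnd1 (0.52, SE 0.10) and their kinase partner Cdk4, from 35.5 ± 1.67 to 47.4 ± 2.38 CPM (log2 0.42, SE 0.07). Rbl2, a pocket protein of the DREAM complex, fell (log2 -0.23, SE 0.05, adjusted p = 0.00397). It was lower in treated than in Control mice too (log2 -0.22, SE 0.05, adjusted p = 0.0127), where Cdk4 and Ccnd3 were the 2 of 22 that rose, near the background of 9.96%. E2f1, an activator of S phase genes, did not pass (log2 0.35, SE 0.14, adjusted p = 0.0628). In treated against EAE mice 1 of 22 fell, the retinoblastoma gene Rb1 (log2 -0.38, SE 0.08, adjusted p = 0.0163). That share is near the background of 4.81%, so it is no result about this list.

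Inhibitors of cyclin-dependent kinases and targets of p53 had 6 of 13 tested genes higher (background 20.2%) and 1 lower (background 16.7%) in EAE. The inhibitor gene Cdkn2c rose (log2 1.20, SE 0.21, adjusted p = 0.0013), as did Cdkn2b (log2 1.06, SE 0.23), Phlda3 (log2 0.38, SE 0.06) and Trp53 itself (log2 0.45, SE 0.08). Zmat3, another target of p53, was the 1 that fell (log2 -0.28, SE 0.06, adjusted p = 0.00519). Cdkn1a, the classic p53-induced inhibitor, was at 33.4 ± 1.32 CPM in Control, 34.5 ± 4.39 in EAE and 34.8 ± 2.43 in treated mice (adjusted p = 0.727 for EAE against Control). None was called in treated against EAE mice (background 5.24%), with 4 of 13 lower at an unadjusted p under 0.05 in edgeR (background 11.7%). Against Control, treated mice had 3 of 13 higher (background 9.96%), Cdkn2d, Trp53 and Phlda3, and Zmat3 lower (background 9.82%). Of the 7 FOXM1 and MuvB genes only Foxm1 was called, a share near the backgrounds for higher calls against Control (20.2% in EAE, 9.96% in treated mice). It rose in EAE (log2 0.50, SE 0.16, adjusted p = 0.0266) and in treated mice (log2 0.49, SE 0.16, adjusted p = 0.0484) against Control, at 1.90 ± 0.303, 2.70 ± 0.0942 and 2.68 ± 0.111 CPM in Control, EAE and treated mice. Its difference between treated and EAE mice was log2 -0.01 (SE 0.15, adjusted p = 0.981).

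Several marker sums were higher in EAE and lower in treated mice, as most members were. These were T cells, B cells, monocytes and macrophages, microglia, astrocytes, and pericytes and fibroblasts. Ependymal sums had the same order by a narrow margin, at 49.617 CPM in EAE replicate 3 against 49.610 in Control replicate 2 and 49.510 in treated replicate 2. Sums of oligodendrocyte progenitor and of neutrophil markers were not lower in treated than in EAE mice. The part of any cell type in the results was not tested. The 27 mitotic members other than Anln, which was set aside after its level was seen, summed to 42.6 to 47.4 CPM in Control, 69.2 to 75.0 CPM in EAE and 51.1 to 59.7 CPM in treated libraries. The S phase members summed to 55.0 to 65.7, 69.3 to 79.6 and 59.4 to 62.1 CPM in that order. For the marker counts that follow, 20.2% of all genes tested were called higher in EAE and 16.7% lower. Genes of T cells summed to 1.64 to 2.13, 18.5 to 21.8 and 2.85 to 11.7 CPM, and 10 of 10 rose in EAE. Their Control levels of Cd3d, Cd3g and Cd8a were at or below 0.099 CPM. Monocyte and macrophage genes summed to 10.2 to 16.6, 395 to 559 and 26.5 to 71.9 CPM, with 4 of 6 higher in EAE. Microglia genes summed to 377 to 473, 859 to 1142 and 459 to 642 CPM, with 6 of 8 higher. Oligodendrocyte progenitor genes, by contrast, summed to 554 to 564, 574 to 596 and 606 to 622 CPM, with 1 of 7 higher and 0 lower in EAE. Genes of neutrophils and their precursors summed to 4.87 to 14.5, 9.01 to 23.5 and 21.9 to 66.0 CPM, highest in treated replicate 1. Pericyte and fibroblast genes summed to 80.2 to 105, 189 to 204 and 85.4 to 117 CPM, with 5 of 7 higher and 1 lower in EAE. Endothelial genes, of which 6 of 6 fell in EAE, summed to 133 to 223, 61.0 to 108 and 121 to 139 CPM. B cell genes summed to 0.590 to 1.22, 9.01 to 11.9 and 0.992 to 3.36 CPM, and of 5 listed only 2 were tested, both higher in EAE. Astrocyte genes summed to 3236 to 4836, 5521 to 7258 and 4501 to 5040 CPM, with 3 of 6 higher and 0 lower in EAE. Ependymal genes summed to 41.5 to 49.6, 49.6 to 54.7 and 35.7 to 49.5 CPM, with 1 of 5 higher and 0 lower.

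**Figure D4:**
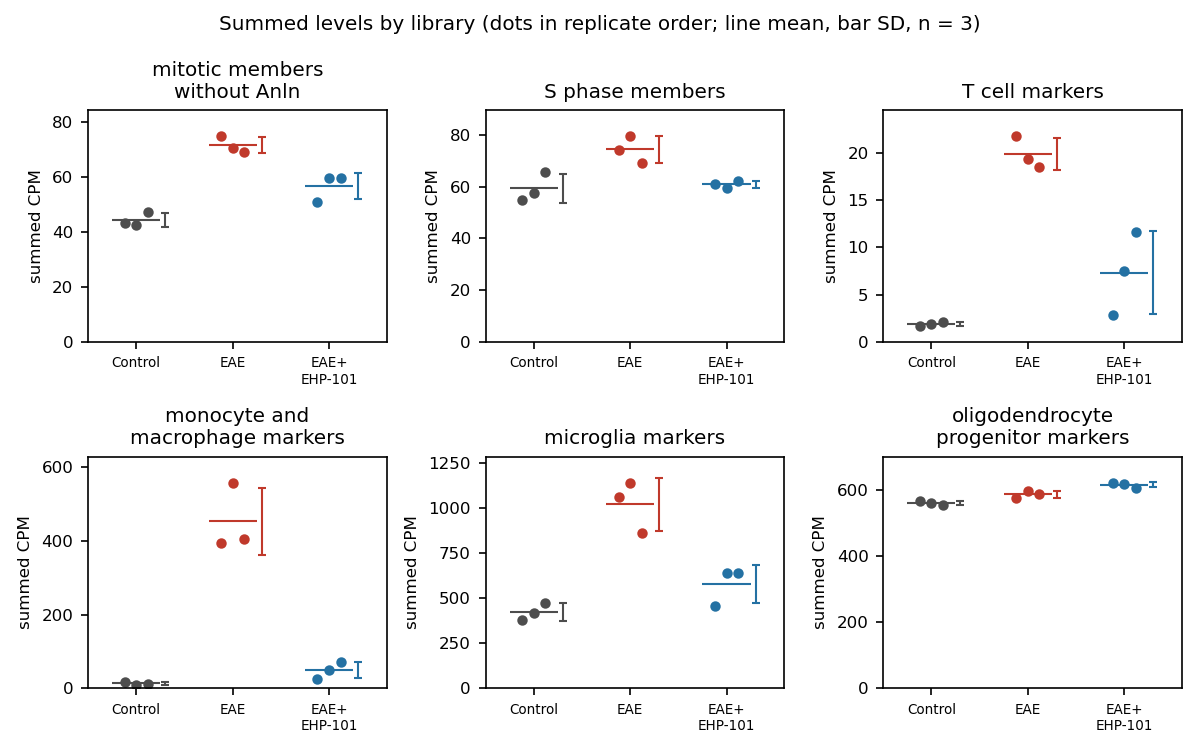
Summed CPM of mitotic members without Anln, of S phase members and of 4 marker lists, 1 dot per library, with the mean as a line and the SD as a bar (n = 3 per group). T cell, monocyte and macrophage, microglia and mitotic sums of all 3 EAE libraries lie above those of all treated libraries, while oligodendrocyte progenitor sums lie between 554 and 622 CPM in all 9 libraries.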

How the data were processed

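RNA was isolated from cord, and 1 µg per sample went into a stranded library read as single ends of 50 bases, per the labels' protocols. The authors deposited raw read counts per Entrez gene, with gene coordinates and lengths, per the file headers. Listed without roles, per the submitters' processing notes, are HISAT2 2.1.0, mm10, Trimmomatic 0.36, DESeq2 1.20.0 and featureCounts 1.6.1, whose settings for strand and for reads with several matches the sources used here do not give. Opposite-strand exons overlap Rrm2, Tk1, Mcm2, Ccna2, Kif20a, Nusap1 and Cdc20, and RefSeq names pseudogenes of Tyms, Pcna, Ccnb1, Ccnb2 and Kif4, so these 12 levels are uncertain.

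Symbols came from RefSeq GRCm38.p6 (25275 of 27179 identifiers). In R 4.3.3, edgeR 4.0.16 kept 16749 genes (filterByExpr by group), scaled by TMM and fitted 1 quasi-likelihood model to all 9 libraries. Every gene was tested and adjusted by Benjamini-Hochberg, and those under 0.05 were called. SE is the log2 fold change over the root of F, and CPM uses scaled library sizes. Alternatives were other scalings, filters and fits, DESeq2 1.42.0, a lowess length correction (span 0.3) and each library left out. The pipeline was tested on simulated data.

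The members, lists and tests were chosen with earlier results of these data known. The naming rule gave every S phase member and 18 mitotic members in full, up to 4 genes of smallest p per pathway list and contrast, and Cdkn1a, Ccnd1, E2f1 and Foxm1 regardless of value.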

Additional observations from a re-analysis of the deposited data

How the results depend on the processing

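No member that was called turned its direction under any alternative run. The count of members called for EAE against Control was 19, ran from 14 to 19 with 1 library left out and from 15 to 20 under the other settings. For treated against EAE mice it was 3, ran from 0 to 6 with 1 library left out and was 5 with only the 2 groups compared. For treated against Control mice it was 4 and ran from 0 to 4 with 1 library left out. The mitotic median minus the S phase median for EAE against Control was log2 0.08, or 0.07 to 0.15 with 1 library left out, and 0.32 with the length trend removed. It was -0.01 for treated against EAE mice (-0.051 to 0.14 with 1 library left out) and 0.29 for treated against Control mice (0.14 to 0.35). With the length trend removed, genes called over the whole table for treated against Control went from 1669 to 761 higher and from 1645 to 792 lower, and falls in EAE against Control from 2800 to 1701.

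Replicate numbers did not pair the libraries, since same-numbered libraries correlated at -0.187 to 0.123 in their deviations from the group means. With the number as a replicate block 16, 3 and 3 members were called in the 3 comparisons, in the order above, and the medians differed by 0.07, -0.01 and 0.30. Under it Anln, Bub1 and Prc1 lost their calls for EAE against Control (adjusted p = 0.0612, 0.0651 and 0.0735) and Ccna2 its call for treated against Control (0.0585). The fit of treated and Control libraries alone left 34 members in the test. Depth limits Ccnb1, Aurkb, Bub1, Ube2c and Ndc80, whose Control libraries held 2 to 13 counts.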

Other observations

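Over the 36 members, Control replicate 3 was the highest Control library for 20 and Control replicate 2 the lowest for 17. Among treated libraries, replicate 1 was the lowest for 18 members and replicate 3 the highest for 16. EAE libraries were more even, with the highest value of 15, 10 and 11 members in replicates 1, 2 and 3.

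Tk1 (chr11:117815519-117826014) and Birc5 (chr11:117849237-117855743) lie on the same stretch of chromosome 11, and both had their highest Control value in replicate 1, at 46 and 65 counts against 15 to 29 and 30 to 43 in the other Control libraries.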
